A study of Mus musculus with 12 samples.

Results

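Apol9a and Apol9b are a pair of mouse genes of the apolipoprotein L family on the same chromosome, and both were lower in the liver of mice lacking prohibitin 1 in adipocytes. They are the 2 genes, of 15140 in the deposited liver count table, whose symbol is Apol9a or Apol9b, taking the first row of each gene identifier. Both were picked because their level was already known to differ between the genotypes in these libraries, so that difference is described here and not tested.

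The study asked what deletion of prohibitin 1 in adipocytes does to steatosis, inflammation and fibrosis of the liver under a fatty diet. The mice were male and received a high-fat diet (60 kcal% fat) for 3 months from 7 to 8 weeks of age. The 6 knockout libraries (KO) came from liver of Phb1adipo-/- mice and the 6 control libraries (WT) from liver of wild-type mice on the same diet. The promoter that drove the deletion is not given in the sources used here, and the labels do not say which animal gave which library. The p-values therefore cover the spread among these libraries, which may be technical.

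Apolipoprotein L proteins are a vertebrate family with several copies in mice, and unlike the plasma apolipoproteins the mouse Apol9 proteins act inside cells. Apol9a and Apol9b are induced by interferon, and mouse APOL9 has been reported to bind prohibitins and to restrict replication of a picornavirus. Type I interferon acts through a cell-surface receptor, receptor-bound JAK kinases and a transcription factor complex that holds IRF9 and binds the interferon-stimulated response element (ISRE) in the promoters of antiviral genes.

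Both genes lie on chromosome 15 (build GRCm38, GENCODE M21 annotation). Apol9a (ENSMUSG00000057346) occupies 77403789 to 77411135 on the minus strand and Apol9b (ENSMUSG00000068246) occupies 77729039 to 77736382 on the plus strand, with 317903 bp between them. Their promoters are shown because the 2 genes share this sequence. Each window runs from 250 bases before to 50 bases after the more downstream of the 2 RefSeq starts (GRCm38.p6), on the strand of the gene. Capitals mark the ISRE core GAAANNGAAA, searched on both strands and found here on the other strand as 2 overlapping matches.

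Apol9a, chr15:77410985-77411284, minus strand: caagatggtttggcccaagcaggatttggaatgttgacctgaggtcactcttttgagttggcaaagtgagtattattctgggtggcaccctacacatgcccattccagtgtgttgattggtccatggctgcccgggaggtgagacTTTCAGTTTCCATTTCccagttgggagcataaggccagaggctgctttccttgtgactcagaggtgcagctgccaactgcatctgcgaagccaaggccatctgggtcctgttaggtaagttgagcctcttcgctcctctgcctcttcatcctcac

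Apol9b, chr15:77728871-77729170, plus strand: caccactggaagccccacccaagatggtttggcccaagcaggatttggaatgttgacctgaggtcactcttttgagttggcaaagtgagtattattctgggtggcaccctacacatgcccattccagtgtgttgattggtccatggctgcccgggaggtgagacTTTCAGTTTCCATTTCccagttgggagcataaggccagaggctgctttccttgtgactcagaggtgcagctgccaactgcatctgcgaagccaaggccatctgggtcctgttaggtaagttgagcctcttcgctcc

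The windows overlap over 281 bases, and all 281 were identical between the genes. The 2 matches began at -105 and -99 in Apol9a, the base before the start being -1, and at -86 and -80 in Apol9b, as the starts used are offset by 19 bases. Of 32851 promoter windows of 300 bases, 1131 (3.44%) held this core. The core TTCNNNGAA, the gamma-activated sequence of interferon signalling, was in 2726 windows (8.30%) and in neither Apol9 window. Among the other 12 apolipoprotein L genes, 10 had a promoter in the table and 6 of these held the ISRE core (Apol7c, Apol7e, Apol10a, Apol10b, Apol11a and Apol11b). A match describes the letters of the window and is not evidence of binding.

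The transcripts are also near-identical, which bears on every value below. Over 1530 aligned positions of the 3-exon coding transcripts, 24 differed (98.4% identical). The stretch before the coding sequence had 0 differences in 153 positions, the 930 coding bases had 14, and the stretch after it had 10 in 447. The longest run without a difference was 446 bases. The next pair of lines shows coding bases 494 to 553, counted from the first coding base, where 6 of the 14 coding differences fall. Capitals mark the bases that differ, and the sequences are those of the GENCODE M21 transcripts.

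Apol9a: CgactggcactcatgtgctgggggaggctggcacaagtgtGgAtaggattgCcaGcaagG

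Apol9b: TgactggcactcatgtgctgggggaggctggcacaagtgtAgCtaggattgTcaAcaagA

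Of all windows of 50 bases in the Apol9b transcript, 57.5% were present unchanged in the Apol9a transcript. For windows of 100 bases this share was 41.1% and for 150 bases 28.1%. No window of these lengths was found in transcripts of another gene. The treatment of reads that match both genes is not given in the sources used here, nor is the read length, so how reads were divided between Apol9a and Apol9b is uncertain.

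Apol9a was lower in every KO library than in every WT library. It had 793, 1338, 682, 1238, 1110 and 682 counts in KO libraries 1 to 6 and 3578, 2235, 3335, 3498, 3134 and 1894 counts in WT libraries 1 to 6. Scaled to library size with TMM factors, as CPM, these were 22.1, 32.2, 21, 33.6, 29.9 and 20.1 in KO and 108, 57.1, 83.6, 93.3, 84.9 and 64.0 in WT. KO libraries 4, 2 and 5 were the highest of their group and WT libraries 2 and 6 the lowest of theirs, and the lowest WT level was 1.70 times the highest KO level. The mean was 26.5 ± 6.08 CPM in KO and 81.9 ± 18.8 CPM in WT (SD, n = 6 each), a 3.09-fold lower mean and a log2 fold change of -1.63 ± 0.18 (SE).

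Apol9b showed the same pattern. It had 1470, 1779, 1503, 2258, 1796 and 1218 counts in KO libraries 1 to 6 and 4248, 3563, 5227, 4292, 4153 and 2786 counts in WT libraries 1 to 6. The CPM levels were 40.9, 42.8, 46.2, 61.2, 48.4 and 35.9 in KO and 129, 91.1, 131, 114, 113 and 94.1 in WT. KO library 4 was the highest of its group, WT libraries 2 and 6 were again the lowest of theirs, and the groups did not overlap (lowest WT 1.49 times the highest KO). The mean was 45.9 ± 8.65 CPM in KO and 112 ± 16.8 CPM in WT (SD, n = 6 each), a 2.44-fold lower mean and a log2 fold change of -1.29 ± 0.13 (SE).

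Both genes were thus among the genes with every KO library below every WT library, which were 186 of the 15000 genes tested (1.24%), while 194 (1.29%) had every KO library above every WT library. The genes were chosen on this contrast, so nothing is read from that. The authors' deposited table gives log2 fold changes of -1.62 for Apol9a and -1.28 for Apol9b. In bulk tissue, fewer cells of a type and less RNA per cell cannot be told apart.

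**Figure D1:**
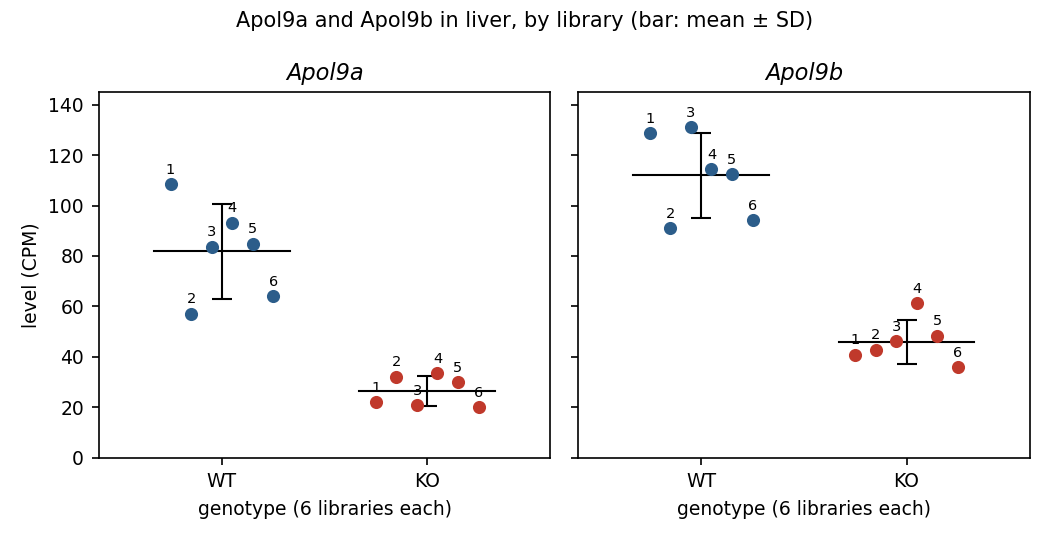
Level of Apol9a (left) and Apol9b (right) in CPM on the vertical axis, by genotype, in 6 WT and 6 KO libraries. Each point is 1 library with its replicate number, the long bar is the group mean and the error bar is ± SD. All KO points lie below all WT points for both genes.

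Because reads may have been divided between the copies, their sum was also taken. Apol9a plus Apol9b stood at 72.4 ± 13.6 CPM in KO and 194 ± 34.2 CPM in WT (SD, n = 6 each), 2.68-fold lower in KO. The highest KO sum was 94.8 CPM and the lowest WT sum was 148 CPM, so the groups did not overlap in the sum either.

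The share of the pair's counts assigned to Apol9a was 35.0%, 42.9%, 31.2%, 35.4%, 38.2% and 35.9% in KO libraries 1 to 6. It was 45.7%, 38.5%, 39.0%, 44.9%, 43.0% and 40.5% in WT libraries 1 to 6. The mean share of the 6 KO libraries was 36.4% ± 3.89 and that of the 6 WT libraries 41.9% ± 3.06 (SD). The groups overlapped through KO library 2, whose share (95% Wilson interval 41.2% to 44.7%) lay inside the WT range. The other 5 KO libraries lay below all WT libraries, from 31.2% (29.3% to 33.2%) in KO library 3 to 38.2% (36.4% to 40.0%) in KO library 5, against 38.5% (37.3% to 39.8%) in WT library 2, so these last intervals overlap. These intervals cover counting error only, and the reads carry no stated molecular identifiers.

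Per length of the coding transcript (1530 bases for Apol9a, 1529 for Apol9b), the Apol9b level exceeded the Apol9a level in all 12 libraries. Apol9a had 17.3 ± 3.97 CPM per kb in KO and 53.5 ± 12.3 in WT, and Apol9b had 30.0 ± 5.66 and 73.2 ± 11.0 (SD, n = 6 each). The ratio of the Apol9b level to the Apol9a level was 1.77 ± 0.288 in KO and 1.40 ± 0.174 in WT. The annotation also holds a retained-intron transcript of Apol9a, and with all exons counted the lengths would be 5953 and 1821 bases, which would raise the ratio.

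The spread of Apol9a between libraries of a group was a coefficient of variation of 23% in both genotypes, and that of Apol9b was 18.8% and 15.0%. For 71 interferon-induced genes, those described below whose mean reached 1 CPM, the median was 23% in KO and 17.4% in WT. Over all 12881 genes at that level it was 14.9% and 12.6%. Both Apol9 genes thus varied more within a group than the median gene, and Apol9b varied less than the median interferon-induced gene.

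The upper end of the interferon pathway is described first. None of the 17 listed interferon ligand genes was in the deposited table, whose lowest gene had 15 counts over the 12 libraries, so the cytokines themselves are not analysed here. Of 6 listed receptor subunits, 5 were tested and none passed the edgeR quasi-likelihood test with Benjamini-Hochberg adjustment at 0.05. At an unadjusted p under 0.05, 2 were lower, where 3184 of 15000 genes passed in either direction. DESeq2 called 1 lower, Ifnar2, where it called 649 of all 15140 genes lower. Ifnar2, a subunit of the type I interferon receptor, stood at 32.0 ± 2.82 CPM in KO and 39.7 ± 4.12 CPM in WT (log2 fold change -0.31 ± 0.08, edgeR adjusted p = 0.0567). Its partner Ifnar1 had a log2 fold change of -0.05 ± 0.06 (edgeR adjusted p = 0.722), and the median of the 5 was -0.11.

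Of the 11 genes listed for kinases, STAT2 and interferon regulatory factors, 3 fell in KO and 0 rose, where 1.49% of all tested genes fell and 1.15% rose. Irf9, the DNA-binding part of the factor that recognises the ISRE, stood at 36.9 ± 2.89 CPM in KO and 50.3 ± 3.29 CPM in WT (log2 fold change -0.45 ± 0.07, edgeR adjusted p = 0.00861), with no overlap between groups. Irf7, which amplifies interferon production, fell by 0.92 ± 0.16 on the log2 scale (edgeR adjusted p = 0.0176). Irf1, a regulatory factor that is itself interferon-induced, fell by 0.67 (edgeR adjusted p = 0.0408). The other 8 did not pass the test, Jak2 among them at -0.20. Stat2 had a log2 fold change of 0.09 and Tyk2 of -0.05.

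Of the 5 brakes on interferon signalling, 1 fell and 0 rose, where 1.49% and 1.15% of all tested genes did. The faller was Usp18, which removes ISG15 from proteins and blocks receptor signalling (5.58 ± 2.66 CPM in KO and 12.3 ± 2.24 CPM in WT, log2 fold change -1.14 ± 0.28, edgeR adjusted p = 0.0496). Pias1 did not pass the test (log2 fold change -0.23 ± 0.06, edgeR adjusted p = 0.0616), although every KO library was below every WT library. DESeq2 called 2 of the 5 lower and 0 higher, where it called 649 and 583 of all 15140 genes. Socs1, a feedback inhibitor of the kinases, had a log2 fold change of 0.76 ± 0.65 that did not pass the test (edgeR adjusted p = 0.536), and 1 KO library stood far above the rest.

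Of 14 genes listed with the sensors of foreign nucleic acid, not all of them sensors, 5 fell and 0 rose. Of all tested genes, 1.49% fell and 1.15% rose. The median log2 fold change of the 14 was -0.45. The fallers were Ddx58, Ifih1 and Dhx58, the RIG-I-like RNA sensors, Zbp1, a sensor of left-handed nucleic acid, and Adar, which edits double-stranded RNA. Zbp1 had the lowest fold change of them, at 4.82 ± 1.20 CPM in KO and 10.1 ± 1.78 CPM in WT (log2 fold change -1.07 ± 0.16, edgeR adjusted p = 0.0112).

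A total of 76 interferon-induced effector genes were listed in 6 families, and 73 of them were in the table and tested. In KO, 23 fell and 0 rose, where 1.49% and 1.15% of all 15000 tested genes did. The median log2 fold change of the 73 was -0.63, against 0.00 for all genes, and 68 of the 73 values were negative. In 19 of the 73 every KO library was below every WT library, against 1.24% of all genes. These lists were drawn up with earlier results from these data known. The count of 23 depended on single libraries. It was 9 when KO library 6 was left out, and leaving out WT library 2, 4 or 5 gave 7, 4 or 10. The 4 genes that fell whichever library was left out were Ddx60, Gbp7, Herc6 and Rtp4. DESeq2 called 44 lower and 0 higher, where it called 649 of all 15140 genes lower and 583 higher. With limma-voom 24 were lower and 0 higher, where 223 and 154 of all 15000 genes were. At an unadjusted edgeR p under 0.05, 56 were lower and 1 was higher, where 3184 of 15000 genes passed in either direction.

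The IFIT family, whose proteins bind viral RNA, had a median of -1.29. Of its 4 tested members (of 6 listed), 3 fell, where 1.49% of all tested genes did. The CPM levels of Ifit1 in KO libraries 1 to 6 were 6.10, 9.58, 5.07, 8.94, 2.83 and 4.66. Those in WT libraries 1 to 6 were 21.3, 18.9, 18.0, 22.1, 22.3 and 9.90. The groups came close but did not overlap, WT library 6 being far below the other WT libraries and KO library 2 the highest of its group. The log2 fold change was -1.59 ± 0.28 (edgeR adjusted p = 0.0206). Ifit3 fell by 1.24 and Ifit3b fell by 1.34 on the log2 scale, and as close copies of each other their reads may be divided uncertainly.

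Among the 2'-5'-oligoadenylate synthetase genes, whose products start RNA degradation, 3 of 9 fell, where 1.49% of all tested genes did. Oasl1 fell by 0.72 ± 0.12 on the log2 scale (edgeR adjusted p = 0.0175), Oas1c by 1.04 and Oas1a by 0.99. Oas1a and Oas1c are further members of a cluster of similar copies. All 9 values were negative, with a median of -0.78.

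The guanylate-binding proteins and the immunity-related GTPases are large GTPase families that attack the vacuoles of intracellular pathogens. Of 11 guanylate-binding protein genes (median -0.71), 5 fell, where 1.49% of all tested genes did. Gbp7 stood at 12 ± 2.49 CPM in KO and 24.6 ± 4.16 CPM in WT (log2 fold change -1.04 ± 0.15, edgeR adjusted p = 0.00860). Gbp10 fell by 1.59, Gbp3 by 1.49 and Gbp9 by 0.71. Gbp11, which did not pass the test, had a log2 fold change of 0.61 ± 0.51 and ranged from 3.29 to 42.3 CPM in KO. Of 8 immunity-related GTPase genes, 3 fell, Igtp by 0.93, Irgm2 by 0.83 and Iigp1 by 0.48.

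In the ISG15 pathway, which attaches a ubiquitin-like tag to proteins, 3 of 4 genes fell, where 1.49% of all tested genes did. Isg15 itself, the tag, stood at 6.00 ± 1.88 CPM in KO and 10.5 ± 1.16 CPM in WT (log2 fold change -0.80 ± 0.17, edgeR adjusted p = 0.0274). Uba7, its activating enzyme, fell by 0.52. Herc6, the ligase for ISG15 in mice, had CPM levels of 9.25, 9.36, 8.67, 9.95, 9.71 and 7.97 in KO libraries 1 to 6. Its WT libraries 1 to 6 had 14.4, 12.8, 13.6, 14.7, 15.0 and 12.3. Its groups did not overlap, and library 6 was the lowest of both (log2 fold change -0.59 ± 0.08, edgeR adjusted p = 0.00674).

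Of the 37 other interferon-induced effectors tested, 6 fell, where 1.49% of all tested genes did. Of the 37 values, 33 were negative (median -0.42). Ddx60, a helicase linked to RNA sensing, had CPM levels of 4.76, 4.26, 4.49, 3.85, 4.26 and 2.86 in KO libraries 1 to 6. In WT libraries 1 to 6 the levels were 10.5, 8.13, 9.28, 9.95, 9.51 and 9.12, clear of the KO libraries. Its log2 fold change was -1.21 ± 0.12 (edgeR adjusted p = 0.000819). Rtp4, an interferon-induced protein with antiviral activity, fell by 0.93 ± 0.15 (edgeR adjusted p = 0.0149). The ADP-ribosyltransferase genes Parp14 and Parp10 fell by 0.66 and 0.39. Bst2, which tethers budding virus to the cell, did not pass the test, with 76.8 ± 9.86 CPM in KO and 77.1 ± 6.44 CPM in WT.

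Interferon also induces antigen presentation, and of 16 genes for MHC class I and peptide loading 5 fell, where 1.49% of all tested genes did. All 16 values were negative, with a median of -0.29. Nlrc5, the activator of class I genes, fell by 0.58 and Tap1, a subunit of the peptide transporter, by 0.46. The class I genes H2-T22 and H2-T23 fell by 0.42 and 0.38, and as members of a family of similar copies their reads may be divided uncertainly.

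The values of the Apol9 genes are set beside these genes as a description, since the pair was picked for this difference and a place near the end of the range follows from that. None of the 73 interferon-induced effectors had a log2 fold change below that of Apol9a, although those of Ifit1 (-1.59 ± 0.28) and Gbp10 (-1.59 ± 0.26) lay within their SE of it. Below that of Apol9b were 5, namely Ifit1, Gbp10, Gbp3, Ifit3b and Mx1. Mx1, an antiviral GTPase named after its value was seen, had a log2 fold change of -1.39 ± 0.45 and did not pass the test (edgeR adjusted p = 0.104).

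**Figure D2:**
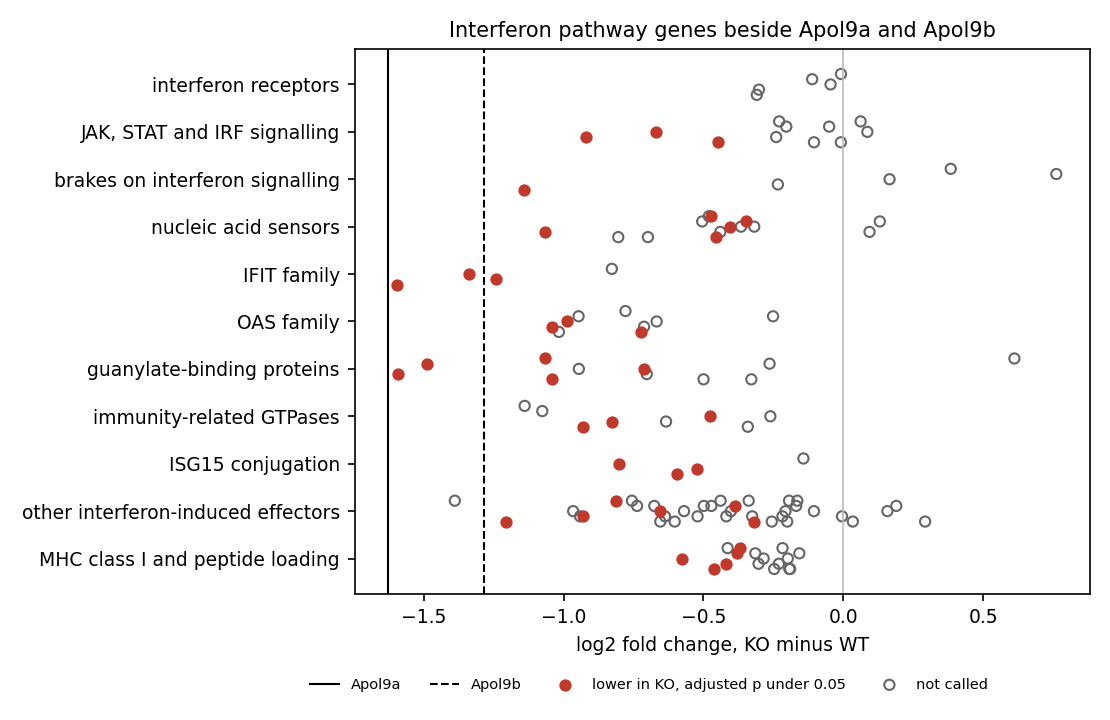
Log2 fold change (KO minus WT) of the interferon pathway genes reported here on the horizontal axis, by role on the vertical axis. Red points were called lower in KO by the edgeR test at an adjusted p under 0.05, and open points were not. Vertical lines mark Apol9a (solid, -1.63) and Apol9b (dashed, -1.29), for which no test is given. None of the pathway genes shown was called higher in KO.

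Markers of several other cell types also had lower values in KO. Of the 20 macrophage markers, all tested, 16 had negative values (median log2 fold change -0.54). In the edgeR test 3 fell (Cd5l, Adgre1 and Vsig4), where 1.49% of all tested genes did. DESeq2 called 12 lower, where it called 649 of all 15140 genes lower. The 4 positive values were those of Gpnmb (1.80), Cx3cr1 (0.23), Ccr2 (0.17) and Trem2 (0.16), none called. In 3 of the 20 markers (Cd5l, Timd4 and Clec4f) every KO library was below every WT library, against 1.24% of all genes. In 0 of the 20 every KO library was above every WT library, against 1.29% of all genes. The summed level of the 20 markers lay between 249 and 470 CPM in KO and between 407 and 639 CPM in WT, so the groups overlapped in the sum. In KO library 4 the macrophage score, explained below, was 0.51, above those of WT libraries 1, 3 and 6.

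Other immune markers were mostly lower in value in KO as well, and few were called, where 1.49% of all tested genes fell in the edgeR test. Of 14 T and NK cell markers 7 were tested, with 6 negative values, a median of -0.67 and 1 call (Lck, lower), and Cd3e, Cd3d, Cd8b1, Gzmb, Klrb1c and Ncr1 were not in the table. The sum of the 7 tested was 4.69 to 6.55 CPM in KO (mean 5.61) and 4.30 to 8.65 CPM in WT (mean 6.17). Its largest part was Cd4, the 1 positive value (3.69 CPM in KO and 2.79 CPM in WT on average). All 6 tested B and plasma cell markers were negative (median -0.53, none called, of 7 listed), summing to 2.27 to 5.61 CPM in KO and 4.27 to 7.52 CPM in WT. All 5 tested neutrophil markers were negative (median -0.63, none called, Ly6g and Cxcr2 not in the table), summing to 6.43 to 14.3 CPM in KO and 8.18 to 22.9 CPM in WT. All 3 tested plasmacytoid dendritic cell markers were negative (median -0.24, none called, Ccr9, Klk1 and Cox6a2 not in the table). The 3 tested summed to 20.7 to 27.3 CPM in KO and 23.6 to 29.3 CPM in WT. Most of this sum was Tcf4 (17.6 CPM in KO and 18.4 CPM in WT on average), while Siglech had 0.354 and 0.760 CPM. The part of these immune markers in the values of the Apol9 and interferon-induced genes was not tested.

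Hepatocyte markers, which mark the labelled tissue, summed to 89006 CPM on average in KO and 89358 CPM in WT, of which Alb was 55773 and 57402 CPM. Of the 10, 6 had positive values (median 0.19) and Tat, a liver amino acid enzyme, rose, where 1.15% of all tested genes did. DESeq2 called 2 higher, where it called 583 of all 15140 genes higher. Ass1, of the urea cycle, did not pass the edgeR test, although it was higher in every KO library than in every WT library (2333 ± 340.0 CPM in KO and 1683 ± 254 CPM in WT, edgeR adjusted p = 0.0538). All 8 sinusoidal endothelial markers were negative (median -0.15), 4 of 8 stellate cell markers were negative (median 0.01) and all 6 cholangiocyte markers were positive (median 0.30), with none called and overlapping sums.

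Prohibitins, the proteins that APOL9 is reported to bind, did not pass the test. Phb, which encodes prohibitin 1, stood at 94.2 ± 4.44 CPM in KO and 85.2 ± 3.77 CPM in WT (log2 fold change 0.15 ± 0.05, edgeR adjusted p = 0.144). Phb2 had a log2 fold change of -0.11 ± 0.07 (edgeR adjusted p = 0.372). The deletion was directed at adipocytes, so Phb in liver does not check the genotype labels.

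Differences between libraries of the same genotype were not used to choose the genes, and they show how far the Apol9 genes move with each other and with the interferon-induced genes. The interferon score of a library averages the standardised log2 CPM of the interferon-induced genes. The KO scores lay between -1.0 and -0.09 and the WT scores between 0.20 and 0.93. A total of 10 relations were computed within KO and within WT, each over 6 libraries, with exact two-sided permutation tests over 720 pairings, whose smallest p is 0.0028. None passed after Benjamini-Hochberg adjustment.

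Apol9a and Apol9b had r = 0.70 in KO (exact p = 0.106, adjusted p = 0.406; rho = 0.71, exact p = 0.136, adjusted p = 0.403). In WT they had r = 0.88 (exact p = 0.05, adjusted p = 0.406; rho = 0.66, exact p = 0.175, adjusted p = 0.403). Without the 2 libraries farthest from the median of Apol9a, r fell to 0.19 in KO (without 4 and 6) and 0.27 in WT (without 2 and 6). Leaving out the most extreme libraries also narrows the range, and over the remaining 4 the relation was not seen.

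The interferon score and Apol9a had r = 0.61 in KO (exact p = 0.153, adjusted p = 0.406; rho = 0.60, exact p = 0.242, adjusted p = 0.403). In WT they had r = 0.56 (exact p = 0.264, adjusted p = 0.440; rho = 0.60, exact p = 0.242, adjusted p = 0.403). Without the 2 farthest libraries r was -0.33 in KO (without 2 and 4) and 0.45 in WT (without 5 and 6). The KO value thus changed sign without those 2 libraries, which also narrows the range.

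For Apol9b the values were smaller. The interferon score and Apol9b had r = 0.34 in KO and 0.29 in WT (exact p = 0.536 and adjusted p = 0.596 in both), with rho = 0.09 in both (exact p and adjusted p = 0.919). Without the 2 farthest libraries r was -0.30 in KO and -0.04 in WT. Whether Apol9a and Apol9b differed in their relation to the score was not tested.

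**Figure D3:**
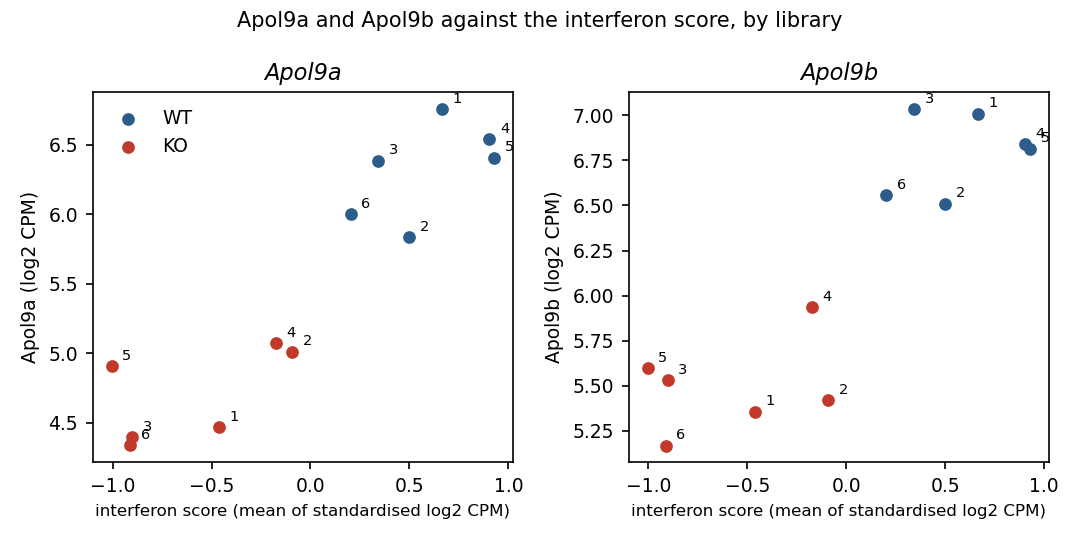
Apol9a (left) and Apol9b (right) in log2 CPM against the interferon score of the library, with 1 point per library, its replicate number beside it, WT in blue and KO in red. The KO scores lie between -1.0 and -0.09 and the WT scores between 0.20 and 0.93, so the genotypes form separate clusters and no pooled r is given.

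The macrophage score, made the same way from the 20 markers, had r = 0.62 with Apol9a and 0.70 with Apol9b in KO (exact p = 0.203 and 0.181, adjusted p = 0.406 for both; rho = 0.60 and 0.37, adjusted p = 0.403 and 0.710). In WT the values were -0.23 and -0.43 (exact p = 0.6 and 0.342, adjusted p = 0.6 and 0.488; rho = -0.14 and -0.66, adjusted p = 0.919 and 0.403). Without the 2 farthest libraries r was -0.70 and -0.07 in KO and 0.28 for both genes in WT. The sign thus differed between the genotypes and changed with 2 libraries.

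A ranking over all 12 libraries, after centring log2 CPM within each genotype, named the genes whose pattern was most like that of the Apol9 genes. It covers the 12880 genes whose mean reached 1 CPM, which share the same libraries and scaling, and is given as a description with no test. For Apol9a the 10 highest were Ddx28 (r = 0.87), Herc6 (0.84), Wdr34 (0.82), Apol9b (0.78), Mkks (0.77), Nle1 (0.77), D10Wsu102e (0.77), Rtp4 (0.76), Cwc22 (0.76) and Rps27a-ps2 (0.75). Herc6 and Rtp4 belong to the interferon-induced list, and Apol9b is the near-identical copy. The RNA sensor Dhx58 came 12th (0.74) and Bst2 18th (0.72), the latter not called between genotypes.

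For Apol9b the 10 highest were Gm28875 (r = 0.87), Esco1 (0.83), Ddx28 (0.82), Mup2 (0.82), Znrf1 (0.81), Slc25a22 (0.81), Mgrn1 (0.80), Imp3 (0.79), Foxj3 (0.78) and Apol9a (0.78). No gene of the interferon-induced list was among them. The highest of that list was Ifi27 (0.74), at place 23. Slc25a22 stood far above the other KO libraries in KO library 4, which was also the highest KO library for Apol9b.

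Over the 71 interferon-induced genes at that level, the median r with Apol9a was 0.36, against 0.01 for all genes, and 61 values were positive. With Apol9b the median was 0.22, against 0.00, and 53 were positive. Of the 100 genes most like Apol9a, 6 (6%) were interferon-induced, and of the 100 most like Apol9b, 3 (3%), where the list is 0.551% of all ranked genes. By role, the medians with Apol9a were 0.46 for the ISG15 pathway, 0.40 for the IFIT family, 0.39 for nucleic acid sensors and 0.38 for the OAS family. They were 0.18 for the guanylate-binding proteins, 0.22 for the immunity-related GTPases, 0.13 for MHC class I, 0.06 for JAK, STAT and IRF signalling and 0.10 for macrophage markers. With Apol9b the medians were 0.40 for the OAS family, 0.25 for nucleic acid sensors, 0.23 for the IFIT family and 0.22 for the ISG15 pathway. They were 0.17 for MHC class I, 0.12 for the immunity-related GTPases, 0.08 for the guanylate-binding proteins and 0.07 for JAK, STAT and IRF signalling. Macrophage markers had a median r of 0.17 with Apol9b (17 of 18 positive), near that of the interferon-induced genes.

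**Figure D4:**
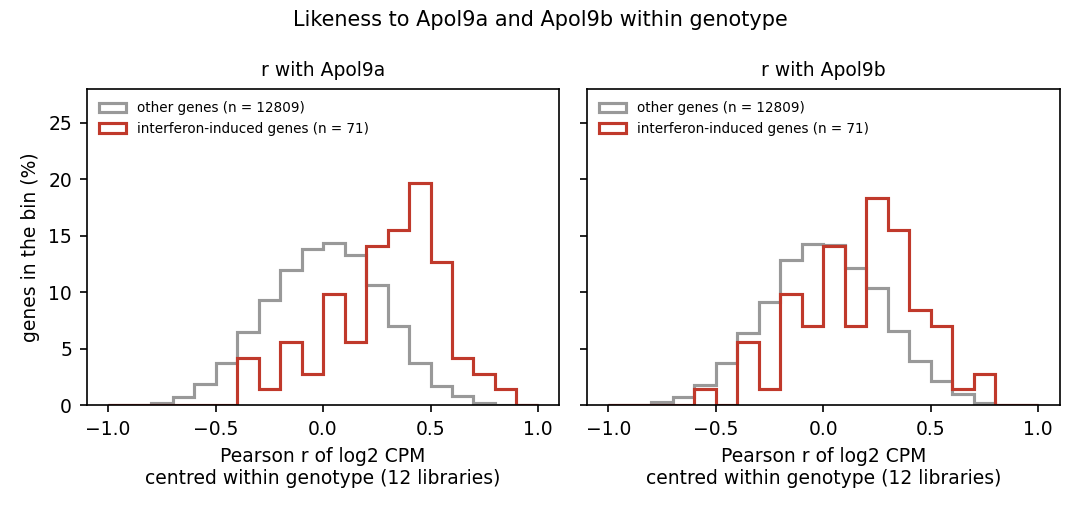
Share of genes (%) by Pearson r with Apol9a (left) and Apol9b (right) of log2 CPM centred within genotype, over 12 libraries. The red line is the 71 interferon-induced genes, with medians of 0.36 and 0.22, and the grey line all other genes whose mean reached 1 CPM.

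The chromosomal neighbourhood held 1 further call. Of 14 other tested genes within 500 kb of either Apol9 gene, 1 passed the edgeR test, where 2.64% of all genes did, and 9 had negative values (median -0.38). The one that passed was Gm49410, a transcribed region of unknown class at 77740761 to 77743890 on the plus strand, 4379 bp beyond the end of Apol9b on the same strand. It had 3, 9, 18, 30, 9 and 10 counts in KO libraries 1 to 6 and 83, 83, 167, 192, 92 and 65 counts in WT libraries 1 to 6, with no overlap. This was 0.367 ± 0.267 CPM in KO and 3.11 ± 1.25 CPM in WT (log2 fold change -3.09 ± 0.43, edgeR adjusted p = 0.00697). Its centred r was 0.62 with Apol9b and 0.33 with Apol9a, and whether its reads belong to a transcript of Apol9b was not tested. Beyond Apol9b, Myh9, which encodes non-muscle myosin heavy chain, and Txn2, mitochondrial thioredoxin, both had a log2 fold change of 0.05. On the Apol9a side, Gm20688, 11408 bp away, had -1.47 ± 0.47 (0.535 CPM in KO and 1.48 CPM in WT). Gm3787, 32779 bp away, had -0.84 ± 0.30 (1.45 CPM in KO and 2.58 CPM in WT). Neither passed the test (edgeR adjusted p = 0.102 and 0.132).

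Apol7a is the nearest family member, 4679 bp from Apol9a. Its CPM levels were 81.4, 73.0, 116, 69.4, 144 and 124 in KO libraries 1 to 6 and 128, 140, 173, 171, 140 and 130 in WT libraries 1 to 6. KO library 5 lay inside the WT range and KO libraries 4 and 2, which were high for Apol9a, were the lowest for Apol7a. The mean was 101 ± 31.0 CPM in KO and 147 ± 20.1 CPM in WT, and the log2 fold change of -0.54 ± 0.18 did not pass the test (edgeR adjusted p = 0.111). DESeq2 did call Apol7a lower (adjusted p = 0.0456). Its centred r was -0.24 with Apol9a and -0.13 with Apol9b, and its promoter window held no ISRE core. Apart from Apol7a, the related gene Apold1 was the only other family member tested, at 0.988 CPM in KO and 0.909 CPM in WT (log2 fold change 0.11 ± 0.24, edgeR adjusted p = 0.824). The other 10 listed apolipoprotein L genes were not in the table.

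**Figure D5:**
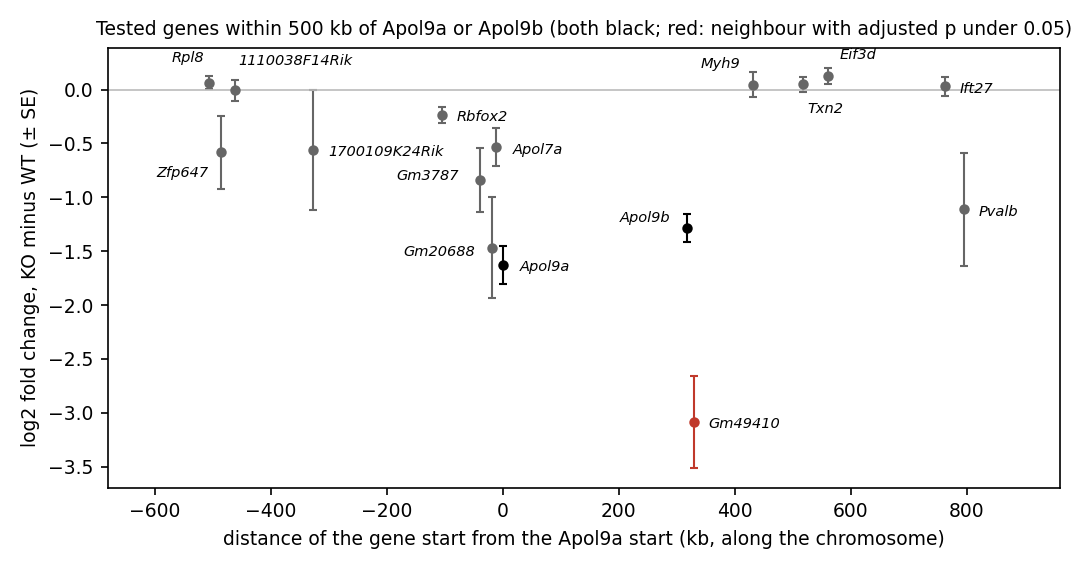
Log2 fold change (KO minus WT, ± SE) of the tested genes within 500 kb of Apol9a or Apol9b, by distance of each gene start from the Apol9a start in kb. Apol9a and Apol9b are black, Gm49410 (-3.09), the 1 neighbour that passed the edgeR test, is red, and the other 13 neighbours are grey.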

How the data were processed

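Liver polyA-selected RNA was sequenced in 6 KO and 6 WT libraries, with the group and replicate number of each library read from its title. The deposited table held raw read counts per gene and library, not normalized, as their whole-number values show. It also held the authors' mean signal per gene (scaled counts), log2 fold change with its error, test score, p-value and adjusted p-value, per the file headers. The tools named, per the submitters' processing notes and without versions, were FastQC, Trimmomatic, HISAT2, SAMtools, featureCounts and DESeq2, on build GRCm38. The strand setting is not given in the sources used here, so reads of overlapping or antisense genes cannot be told apart.

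Of 15344 rows, 204 repeats of a gene with the same counts were left out, which left 15140 genes (15127 with a GENCODE M21 position). Totals ran from 34121087 to 37973022 counts in KO and from 30348123 to 40828767 in WT. No pair of libraries within a group agreed within sampling noise (30 pairs, chi-square per degree of freedom 38.0 to 242). KO and WT were compared with edgeR 4.0.16 (R 4.3.3, quasi-likelihood F test, robust, TMM, filterByExpr, two-sided, Benjamini-Hochberg threshold 0.05) on 15000 genes. SE is the absolute log2 fold change over the square root of F. Log2 CPM used a prior count of 2.

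One gene of the interferon lists is not reported here. The members and lists were chosen with earlier results of these data known. Named genes are the Apol9 pair, measured family members, up to 4 genes per interferon list with the smallest p, Phb and Phb2, the 10 most like each Apol9 gene, and neighbours within 500 kb. Named outside this rule, after their values were seen, are Dhx58, Bst2, Ifi27, Gbp11, Mx1, Stat2, Tyk2, single markers of other cell types, and the plasma apolipoproteins. The scripts were tested on simulated data. Alternatives were DESeq2 1.42.0, limma-voom (limma 3.58.1), other scalings and filters, a replicate block and each library left out.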

Additional observations from a re-analysis of the deposited data

Results flagged for a closer look

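A library stood apart from the other 5 of its genotype, with a gap that is a larger part of the group's range than Dixon's 95% critical value for 6 samples, in 9 of 162 groups examined. Chance alone gives about 8.1 such groups. Neither Apol9 gene was among them. Values are log2 CPM, and the gap is given as a part of the range.

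WT library 6 was low for Ifit1 (3.32, others 4.18 to 4.48, gap 0.738), Gbp7 (4.09, others 4.63 to 4.89, gap 0.668) and 1110038F14Rik (2.72, others 2.94 to 3.07, gap 0.640). The same library was among the 2 lowest WT libraries for Apol9a and Apol9b. WT library 1 was low for Oas1c (0.34, others 0.49 to 0.58, gap 0.644) and WT library 2 for 1700109K24Rik (-1.37, others -0.97 to -0.83, gap 0.736).

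In KO, library 1 was high for Jak2 (4.46, others 4.18 to 4.27, gap 0.674), library 2 was low for Tap1 (4.89, others 5.19 to 5.30, gap 0.730), library 1 was high for Socs1 (1.78, others -1.59 to -1.21, gap 0.886) and library 4 was high for Slc25a22 (8.55, others 7.63 to 7.82, gap 0.791).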

How the results depend on the processing

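The log2 fold change of Apol9a ran from -1.71 to -1.53 and that of Apol9b from -1.39 to -1.24 over all 19 alternatives run. The within-genotype correlations stayed without a call under RLE, total counts and a pseudocount of 0.5. The count of genes called was 396, with 1232 by DESeq2 and 257 with total counts only, and ran from 25 to 700 when 1 library was left out. Leaving out KO library 2 or 6 gave 235 or 86, and leaving out WT library 2, 4, 5 or 6 gave 46, 25, 89 or 700. The count of interferon-induced genes called lower was 23, with 44 by DESeq2 (all 23 among them), and ran from 4 to 29 when 1 library was left out. The other scalings, filters and limma-voom gave 18 to 25. Equal replicate numbers were not taken as pairs, because genotype is the only design factor in the labels. Not every same-numbered pair deviated together (r -0.204 to 0.362, median 0.122, against a median of -0.027 for other pairs), and pairing was not tested. That 5 of 12 libraries correlated best with their own number is a hint from the data and not from the design. The number that chance would give was not computed. With a replicate block 374 genes and 25 interferon-induced genes were called, 22 of the 23 among them, and the log2 fold changes of Apol9a and Apol9b were -1.63 and -1.29. The cause of these shifts was not tested.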

Other observations

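The plasma apolipoproteins, which share a name with the Apol9 genes but are secreted by hepatocytes on lipoproteins, held no call. Of 14 such genes tested, 0 passed the edgeR test, and DESeq2 and limma-voom called 0. At an unadjusted edgeR p under 0.05, 2 were higher, where 3184 of 15000 genes passed in either direction. Of the 14 values, 6 were negative, and the median log2 fold change was 0.04. Apoe, a ligand of lipoprotein receptors, stood at 22446 ± 1590 CPM in KO and 22711 ± 2474 CPM in WT (SD, n = 6 each). Apob, the structural protein of very-low-density lipoprotein, had a log2 fold change of -0.15 ± 0.09 (edgeR adjusted p = 0.375). The value farthest from 0 was that of Apoa4, which responds to hepatic fat, at 457 ± 312 CPM in KO and 235 ± 107 CPM in WT (log2 fold change 0.96 ± 0.41, edgeR adjusted p = 0.205).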
